A study of Mus musculus with 12 samples.

Results

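The genes examined mark subsets of tissue macrophages, or serve macrophages to sense chemokines and nucleotides, and were followed in bulk RNA from cultures of mouse embryonic fibroblasts. They were the rows of the count table whose identifiers map to Cx3cr1, Lyve1, Folr2, Timd4, P2ry12, P2ry6, Ccr1, Ccr2 and Tmem119, 9 genes of 55573. They were chosen by a pattern already seen in these data, in which Cx3cr1 fell with vitamin B12 while other macrophage genes rose, so their B12 differences and the counts of genes called with B12 are given below as a description, with no p and with nothing read from them. The cells (MEFs, C57BL/6, from E13.5 embryos) express Oct4, Sox2, Klf4 and cMyc (OSKM, the factors that reprogram fibroblasts to pluripotency) when doxycycline is given. Cultures from 3 embryos, called clones 1 to 3 in the labels, each gave 1 library of 4 groups, 12 libraries in all: MEF without additions, MEF+B12 with 2 µM vitamin B12, OSKM with 1 µg/ml doxycycline, and OSKM+B12 with both, all after 72 h in medium for induced pluripotent stem cells. Only the OSKM and OSKM+B12 cultures received doxycycline, so the drug and the factors cannot be told apart. The concentration is that of the labels, and the methods of the study give it in mg rather than µg per ml.

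Fibroblast cultures made from whole embryos can carry macrophages along. Embryonic macrophages depend on the growth factor receptor Csf1r, seed the tissues before birth and settle into subsets that are told apart by surface receptors. Cx3cr1, the receptor for the tethered chemokine Cx3cl1, is high on yolk-sac-derived macrophages and stays on in microglia, while Lyve1, Folr2 and Timd4 mark long-lived resident macrophages in many tissues, and Ccr2 marks cells that descend from blood monocytes.

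Macrophage RNA was present in all 12 libraries beside that of fibroblasts. The summed level of 12 pan-macrophage genes lay between 498 and 1160 CPM (read counts scaled to a common library size), while 10 fibroblast genes summed to between 85000 and 137000 CPM. Granulocyte and mast cell genes were nearly absent, with all 10 below 10 counts in every library, and of 10 T and NK cell genes Cd3e, Cd3g, Cd8a and Ncr1 were at 0 counts throughout. In bulk RNA, fewer cells of a type and less RNA per cell cannot be told apart.

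Libraries held between 56971244 and 79236795 counts. Pou5f1, which encodes Oct4, lay between 18.5 and 20.7 CPM in the doxycycline-treated libraries of clones 1 and 2, at 2.86 and 2.33 CPM in those of clone 3, and at no more than 0.468 CPM without doxycycline. Clone 3 was thus the culture with the weakest induction. Clone 1 differed from the others in the year in its title and in sex-linked genes, with Xist at no more than 0.0289 CPM against at least 219 CPM in clones 2 and 3. The OSKM library of clone 1 also stood apart in its pseudogenes: over 1519 of them, its log2 difference from the rest of its clone had an SD of 0.556, against 0.114 to 0.247 in the other 11 libraries.

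The upstream sequence of members was read from RefSeq promoters on GRCm38.p6, which were given for 6 of the 9 genes. A short motif of the myeloid factor PU.1 was looked for, as a description. Genes of opposite B12 direction were not compared. Those directions chose the genes, and Cx3cr1 was the only member with a window that was lower in all B12 pairs. The 250 bases before the start of Ccr1 (chr9:123968693-123968942, minus strand) and of Timd4 (chr11:46810549-46810798, plus strand) are shown because Ccr1 had the largest B12 difference among the members with over 40 counts in every library and Timd4 was the member called with induction, and because neither window overlaps an annotated exon. Capitals mark GAGGAA, the inner part of the core GAGGAAGT, both searched on both strands, the shorter motif lying within the longer.
Ccr1: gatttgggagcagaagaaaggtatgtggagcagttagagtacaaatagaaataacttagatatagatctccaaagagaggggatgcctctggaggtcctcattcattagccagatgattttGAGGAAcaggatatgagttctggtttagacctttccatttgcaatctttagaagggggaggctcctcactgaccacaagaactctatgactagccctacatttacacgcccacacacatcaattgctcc
Timd4: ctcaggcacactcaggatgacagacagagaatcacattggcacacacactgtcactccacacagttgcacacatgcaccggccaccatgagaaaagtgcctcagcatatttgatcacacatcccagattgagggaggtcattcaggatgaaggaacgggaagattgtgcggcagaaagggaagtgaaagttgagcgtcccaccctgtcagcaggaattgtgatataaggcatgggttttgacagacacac
GAGGAA occurs in 23.3% and GAGGAAGT in 2.44% of 32851 promoters of the same length. Among the members with a window, only that of Ccr1 held GAGGAA, starting 129 bases before the start, and the longer core was in none. The window of Cx3cr1 lies wholly within an exon of another of its transcripts and is not printed. That of P2ry12 lies wholly within an exon of Med12l, and 233 of the 250 bases of the Ccr2 window lie within a Ccr2 exon. For Timd4 and P2ry12, the bases that follow the RefSeq start are in no GENCODE transcript of the gene, so their starts are uncertain.

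Divided by exon length, member levels spanned more than 3 orders of magnitude. Tmem119 was highest at 44.1 ± 4.69 CPM per kilobase (SD, n = 12), followed by Folr2 at 9.25 ± 4.02, P2ry6 at 5.91 ± 1.73 and P2ry12 at 1.71 ± 0.584. Below these were Cx3cr1 at 0.819 ± 0.425, Ccr1 at 0.688 ± 0.366, Timd4 at 0.138 ± 0.169, Lyve1 at 0.069 ± 0.042 and Ccr2 at 0.0151 ± 0.00671. The ranges over the 12 libraries did not overlap between Tmem119 and Folr2, between P2ry6 and P2ry12, or between Lyve1 and Ccr2. Neighbours otherwise overlapped: Folr2 exceeded P2ry6 in 10 of 12 libraries, Cx3cr1 exceeded Ccr1 in 7, and Timd4 exceeded Lyve1 in 7. For comparison on the same scale, the lineage receptor Csf1r averaged 21.3 CPM per kilobase.

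**Figure D1:**
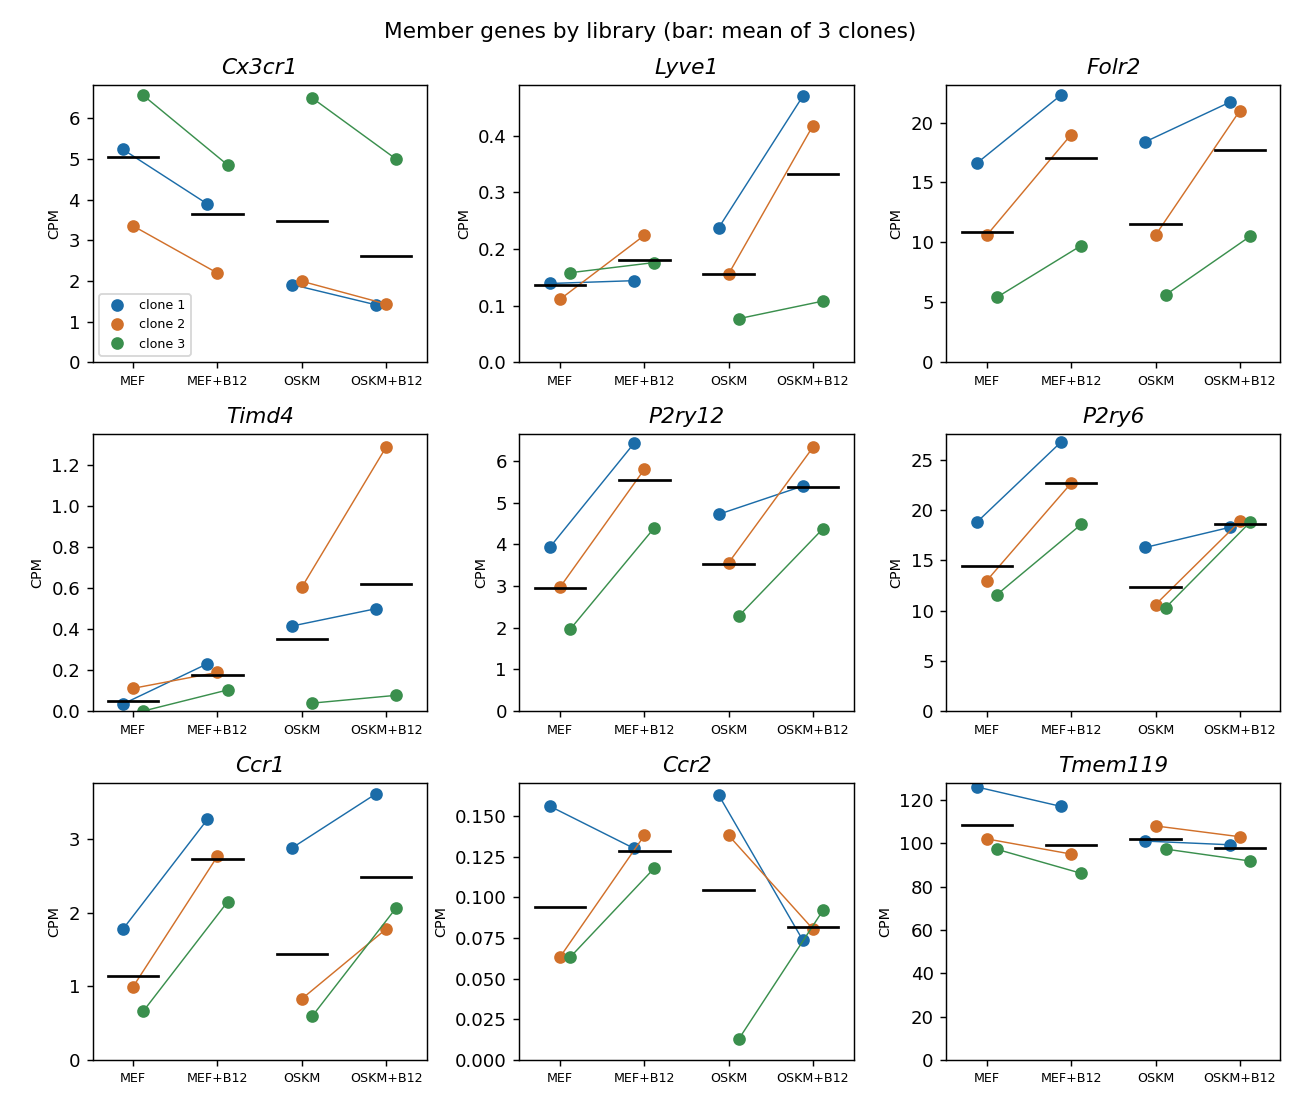
Level of each member in CPM (vertical axes from 0, scaled per gene) in the 12 libraries, by group. Points are libraries coloured by clone, thin lines join the libraries of a clone without and with B12, and black bars are means of 3 clones; Cx3cr1 of clone 3 stays at 6.5 CPM in OSKM while clones 1 and 2 are at 1.91 and 1.99 CPM.

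Cx3cr1 (ENSMUSG00000052336, chr9:119901616-120069879, minus strand, GRCm38) couples macrophages to cells that display Cx3cl1. Its span reaches over the same-strand genes Csrnp1, Gorasp1 and Xirp1 only because of a far exon of 12 bases. The other exons lie between 120048683 and 120069879, and 1.754% of its 31-base words occur in other genes. In MEF it had 5.23, 3.35 and 6.56 CPM in clones 1, 2 and 3, and in MEF+B12 3.89, 2.19 and 4.85 CPM. After induction it had 1.91, 1.99 and 6.5 CPM without B12, and 1.41, 1.43 and 4.99 CPM with B12. The counts behind these values ran from 89 to 507. Clone 3 was highest in each group, and the induced libraries of clones 1 and 2 lay below every uninduced library.

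Whether induction changes the members was asked of OSKM against MEF averaged over B12, with clone as a block (edgeR quasi-likelihood test over 19174 genes, Benjamini-Hochberg adjustment). Timd4 was the only member called, 1 of the 8 tested, where 9.73% of all genes were called. The median log2 difference of the 8 was 0.05, against 0.00 over all genes. Here and below, this fit takes an embryo's pairs without and with B12 as separate evidence. Its SE and adjusted p therefore do not measure the spread between embryos alone. Cx3cr1 was lower by 0.66 on the log2 scale, with an SE of 0.20 and an adjusted p of 0.0605, which did not pass. The mean differences of Cx3cr1 in clones 1, 2 and 3 were -1.44, -0.67 and 0.01. With DESeq2 its adjusted p was 0.00371, and without clone 3 it fell by 1.09 with an adjusted p of 0.00468 in edgeR, whereas without clone 1 the difference was -0.28 with an adjusted p of 0.403.

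Timd4 (chr11:46810800-46844332, plus strand), a receptor for phosphatidylserine with which resident macrophages take up dying cells, rose by 2.17 ± 0.40 (SE) on the log2 scale with induction, with an edgeR adjusted p of 0.0199. Its counts were few. In MEF it had 2, 7 and 0 counts in clones 1, 2 and 3, and in MEF+B12 16, 11 and 7 counts. After induction it had 28, 35 and 3 counts without B12, against 34, 80 and 5 with it. Clones 1 and 2 were higher after induction in all 4 of their pairs, while clone 3 stayed at or below 0.103 CPM everywhere. Mean differences of log2 CPM with induction were 1.89, 2.37 and 0.43 in clones 1, 2 and 3. The SE of the fit does not measure this spread between embryos alone. The 0 in the MEF library of clone 3 allows up to 0.0473 CPM (3 counts, counting error only). The call was lost without clone 1 (adjusted p = 0.26), without clone 2 (0.426) and without the clone block (0.264), although the estimate stayed between 2.07 and 2.30. With a filter of 10 counts in every library Timd4 was not tested.

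Folr2, the folate receptor of resident macrophages, did not move with induction beyond its error (0.08 ± 0.09, SE, adjusted p = 0.64). It had 16.6, 10.6 and 5.42 CPM in MEF and 18.4, 10.6 and 5.62 CPM in OSKM for clones 1, 2 and 3, and 22.3, 19.0 and 9.74 CPM in MEF+B12 and 21.7, 21 and 10.5 CPM in OSKM+B12. Each clone thus held nearly the same level before and after induction at a given B12 state. Lyve1, a hyaluronan receptor shared by resident macrophages and lymphatic endothelium, was scarce, with 6 to 32 counts a library. In clones 1, 2 and 3 it had 0.139, 0.111 and 0.158 CPM in MEF, 0.144, 0.224 and 0.176 in MEF+B12, then 0.237, 0.156 and 0.0769 in OSKM, with 0.470, 0.418 and 0.108 in OSKM+B12. The induction difference of Lyve1 was 0.47 ± 0.35 (SE, adjusted p = 0.427), positive in the 4 pairs of clones 1 and 2 and negative in both pairs of clone 3. Of the lymphatic markers, Prox1 was present at 15 to 32 counts, and Ccl21a and Mmrn1 at no more than 5, so Lyve1 cannot be assigned to macrophages alone.

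**Figure D2:**
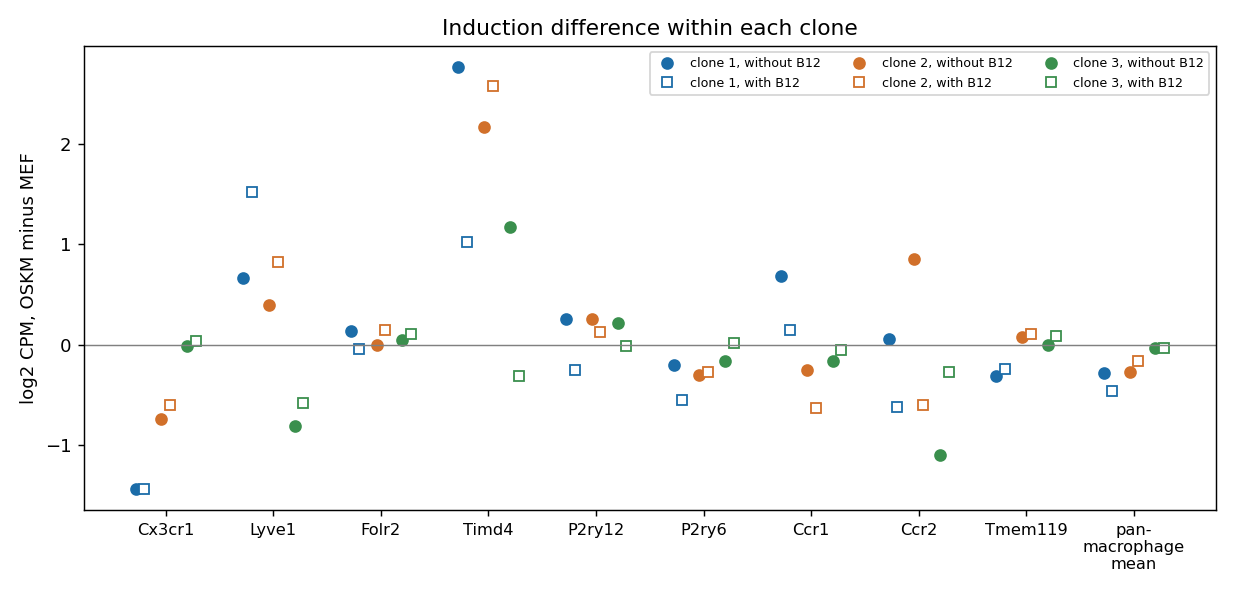
Difference of log2 CPM between OSKM and MEF within each clone, for the 9 members and for the mean of 12 pan-macrophage genes. Filled circles are pairs without B12, open squares pairs with B12, coloured by clone, and the line marks 0; Cx3cr1 runs from -1.44 in clone 1 to about 0 in clone 3.

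The nucleotide receptors sat at moderate levels. P2ry12, the ADP receptor of platelets and microglia, had 3.93, 2.97 and 1.96 CPM in MEF, 6.43, 5.80 and 4.40 in MEF+B12, 4.72, 3.56 and 2.28 in OSKM, with 5.40, 6.33 and 4.38 in OSKM+B12. P2ry6, the UDP receptor that drives phagocytosis in microglia, had 18.8, 13 and 11.6 CPM in MEF, 26.8, 22.7 and 18.6 in MEF+B12, 16.3, 10.6 and 10.3 in OSKM, with 18.3, 18.9 and 18.8 in OSKM+B12. P2ry12 was 0.11 ± 0.10 higher and P2ry6 0.24 ± 0.09 lower with induction on the log2 scale (SE), with adjusted p of 0.55 and 0.117. P2ry12 lies inside Med12l, which is on the other strand and was at no more than 1.11 CPM.

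Ccr1, a receptor for Ccl3, Ccl5 and related chemokines, had 1.78, 0.996 and 0.662 CPM in MEF, 3.27, 2.77 and 2.15 in MEF+B12, 2.88, 0.830 and 0.590 in OSKM, with 3.62, 1.78 and 2.07 in OSKM+B12. Its induction difference was 0.02 ± 0.21 (SE, adjusted p = 0.973), from 0.68 in clone 1 without B12 to -0.63 in clone 2 with B12, and its sign changed with the OSKM library of clone 1 left out (-0.26). Ccr2, the receptor for Ccl2, had 1 to 11 counts in every library and did not pass the filter on low counts. It had 0.156, 0.0632 and 0.0631 CPM in MEF, 0.130, 0.138 and 0.118 in MEF+B12, 0.163, 0.138 and 0.0128 in OSKM, with 0.0735, 0.0804 and 0.0921 in OSKM+B12. These are 8 to 9 counts in MEF+B12 and 5 to 6 in OSKM+B12, while MEF and OSKM overlapped, and no difference of Ccr2 was tested. The other monocyte genes were mixed. Chil3, Cd209a and Napsa stayed below 10 counts in every library, Chil3 and Cd209a at 0, while Plac8 lay between 67.1 and 141 CPM, Ly6c2 between 4.41 and 10.9 CPM and Cd52 between 2.56 and 8.13 CPM. With induction, 0 of the 8 tested were called, where 9.73% of all genes were called.

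Tmem119, used as a microglial surface marker and also known from osteoblasts and their precursors, had 126, 102 and 97.2 CPM in MEF, 117, 95 and 86.1 in MEF+B12, 101, 108 and 97.3 in OSKM, with 99.3, 103 and 91.8 in OSKM+B12. It varied by no more than 1.46 times over the 12 libraries. Siglech, another microglial marker, was at 0 counts throughout, and Sall1, the factor that defines microglia, lay between 0.364 and 1.19 CPM. The osteoblast regulator Runx2 lay between 13 and 20.9 CPM, with Sp7 at no more than 0.311 CPM. Which cells carried Tmem119 was not tested.

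The difference of Cx3cr1 with induction was unlike between the cultures of the 3 clones. The log2 difference of OSKM from MEF was -1.44 both without and with B12 in clone 1, -0.74 and -0.60 in clone 2, and -0.01 and 0.04 in clone 3. The pairs of a clone lay close together, and the clones differed by up to 1.47 in the fit. Each embryo gave 1 library per group. The test below therefore took its error from an embryo's libraries with and without B12. It cannot tell an embryo's own response from the variation of single cultures. A test of the clone-by-induction term gave an edgeR adjusted p of 0.00504 for Cx3cr1, and the term was called for 2 of 8 members, against 2.15% of all genes. It was 0.00622 without the OSKM library of clone 1, 0.0167 without clone 2, 0.0604 without clone 1 and 0.871 without clone 3. Pou5f1 moved with this order only in part, being low in clone 3 and alike in clones 1 and 2, and its part in the result was not tested.

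Tmem119 was the other member called. It was lower after induction by 0.31 and 0.24 in clone 1, while clone 2 gave 0.08 and 0.11 and clone 3 gave 0.00 and 0.09 (adjusted p = 0.029 in edgeR, and 0.027 without the OSKM library of clone 1). With any clone left out it no longer passed, with adjusted p between 0.132 and 0.745. Lyve1 had clone differences of up to 2.13 with an adjusted p of 0.243. Folr2 was the most even member, with clone means of 0.05, 0.08 and 0.08.

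Among the fixed lists, several genes with known macrophage or vascular roles varied between clones in the same test, which called 2.15% of all genes. Adgre1, which encodes F4/80, gave -0.50, -0.31 and 0.02 in clones 1, 2 and 3 (adjusted p = 0.0295), and Fcrls, a microglia-enriched Fc receptor-like gene, gave -0.47, -0.59 and -0.09 (adjusted p = 0.0153). Gas6, a bridging ligand for dying cells, gave -0.54, -0.63 and -0.06 (adjusted p = 0.00437). Flt4, the lymphatic receptor for Vegfc, gave -0.90, -1.38 and -0.21 (adjusted p = 0.0125). Tek, the angiopoietin receptor, went the other way with 1.83, 1.6 and 0.32 (adjusted p = 0.00027), as did Cdh5 with 1.43, 1.96 and 0.25 (adjusted p = 0.0107). In each of these, clone 3 had the smallest difference. Mfge8 (adjusted p = 0.0263), Has1 (0.044), Nt5e (0.0469) and the osteoblast list's Spp1 (0.0202) were also called, and the monocyte list, the relatives of the members and the fibroblast list had 0 called.

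Levels also differed between clones on average over the 4 groups. The test of clones called 7 of 8 members, Lyve1 excepted, where it called 37.8% of all genes. Cx3cr1 was highest in clone 3, and its clone means differed by up to 1.43 on the log2 scale (adjusted p = 0.00197). Folr2 ran the other way, from 16.6 to 22.3 CPM in clone 1 against 5.42 to 10.5 CPM in clone 3, without overlap (largest difference 1.39, adjusted p = 2.95e-05). Timd4 differed by 3.19 (adjusted p = 0.00191), P2ry12 by 0.71 (0.00314) and Ccr1 by 1.22 (0.00543), each with its lowest level in clone 3 or, for Ccr1, in clones 2 and 3. P2ry6 differed by 0.46 (0.015) and Tmem119 by 0.25 (0.0398), but not alike in every group. P2ry6 had 18.3, 18.9 and 18.8 CPM in OSKM+B12 for clones 1, 2 and 3. Tmem119 was highest in clone 1 in MEF (126 CPM) and in clone 2 in OSKM (108 CPM). Without clone 3, the adjusted p of Cx3cr1, Timd4 and P2ry12 rose to 0.126, 0.109 and 0.337, and that of Tmem119 to 0.302. Without clone 1, the largest difference was 0.26 for Ccr1, 0.12 for P2ry6 and 0.12 for Tmem119, with adjusted p of 0.418, 0.302 and 0.0771. P2ry6 also missed the threshold without the OSKM library of clone 1 (0.052). Clone cannot be told apart from sex or title year for clone 1.

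With B12, Cx3cr1 was lower in all 6 within-clone pairs, by 0.43, 0.61 and 0.43 in MEF and by 0.43, 0.47 and 0.38 in OSKM for clones 1, 2 and 3. The fitted average was -0.45 ± 0.20 (SE). These values had a part in choosing the genes. Folr2 was higher in all 6 pairs (0.24 to 0.98), as were P2ry12 (0.19 to 1.16), P2ry6 (0.17 to 0.87), Ccr1 (0.33 to 1.76), Timd4 (0.25 to 2.12) and Lyve1 (0.05 to 1.27). The fitted averages were 0.69 ± 0.09, 0.79 ± 0.10, 0.64 ± 0.09, 1.14 ± 0.21, 1.38 ± 0.41 and 0.73 ± 0.34 (SE) in that order. Tmem119 was lower by 0.03 to 0.17, and Ccr2 was higher in 3 pairs and lower in 3. Folr2, P2ry12, P2ry6 and Ccr1 passed the threshold used for all genes, 4 of 8, where 3.84% of all genes were called. Since this contrast chose the members, nothing is read from that count. The libraries of clone 1 had the smallest B12 difference for Folr2, P2ry12, P2ry6 and Ccr1 after induction, between 0.17 and 0.33.

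**Figure D3:**
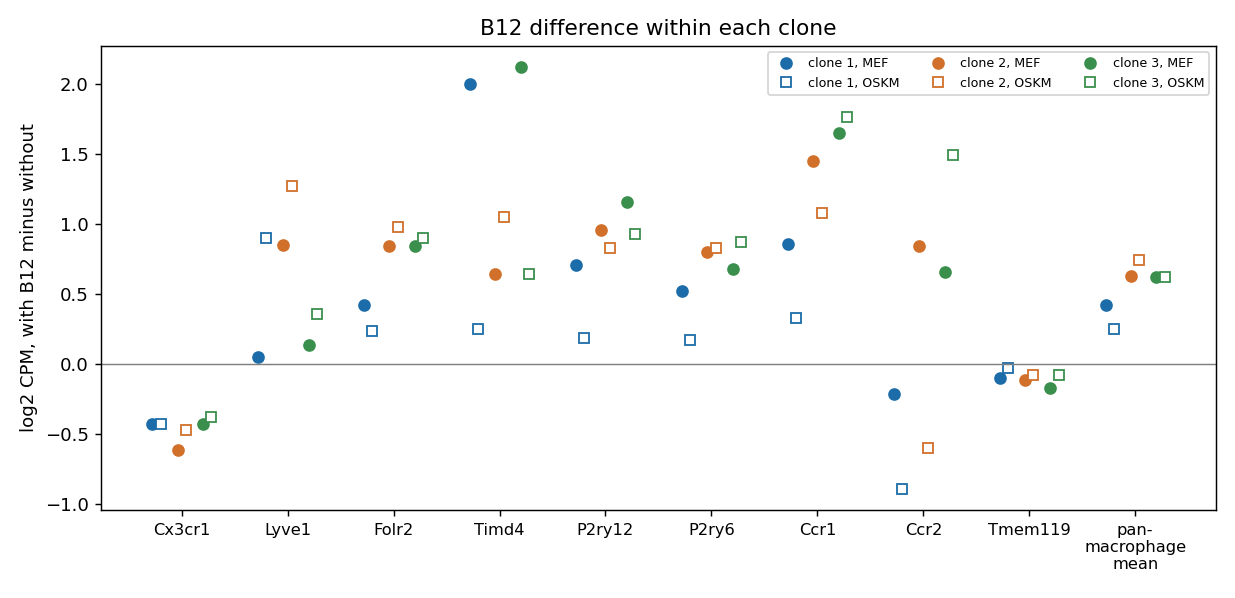
Difference of log2 CPM with B12 minus without, within each clone, for the 9 members and the mean of 12 pan-macrophage genes. Filled circles are MEF pairs, open squares OSKM pairs, coloured by clone, and the line marks 0; all 6 pairs of Cx3cr1 lie between -0.61 and -0.38, and all 6 of the pan-macrophage mean between 0.25 and 0.74.

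Whether the B12 difference depends on induction was asked by the interaction term. It was called for 0 of 8 members and 0 of 19174 genes (0%) by edgeR and for 0 genes by DESeq2; 273 genes and 0 members had an unadjusted p below 0.05 in edgeR. The interaction was 0.07 ± 0.39 (SE) for Cx3cr1, -1.26 ± 0.83 for Timd4, 0.65 ± 0.69 for Lyve1 and -0.4 ± 0.41 for Ccr1. The B12 averages of these genes were -0.45, 1.38, 0.73 and 1.14 in that order, each larger in size than the SE of its interaction. For Cx3cr1 the excess was small, and an interaction as large as its B12 average was not excluded. The interaction was held more closely for P2ry6 (-0.04 ± 0.18), Folr2 (0.01 ± 0.18) and P2ry12 (-0.29 ± 0.20). For Tmem119 it was 0.06 ± 0.11, but the B12 average of this gene was only -0.1 and lay within that error.

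The members were also set against the mean log2 CPM of the 12 pan-macrophage genes in the same library. With B12 this ratio restates the pattern that chose the genes and is given as a description. Cx3cr1 was lower with B12 by this ratio in all 6 pairs, from -1.24 to -0.68, with a mean of -1.0 ± 0.23 (SD over 3 clones). P2ry6 stayed close to the pan-macrophage genes, with pairs from -0.08 to 0.24 and a mean of 0.10 ± 0.08, and Folr2 did likewise with a mean of 0.16 ± 0.14. P2ry12 averaged 0.25 ± 0.16 and Ccr1 0.64 ± 0.42. With induction, the ratio of P2ry6 was again near 0 in every clone (-0.01, -0.07 and -0.04), while Folr2 was higher in all 6 pairs (0.08 to 0.43) and P2ry12 in all 6 (0.02 to 0.54). The pan-macrophage mean itself was lower in all 6 induction pairs, by 0.03 to 0.46. The ratio of Tmem119 was lower with B12 in all 6 pairs (-0.82 to -0.28), its own level having moved by at most 0.17.

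**Figure D4:**
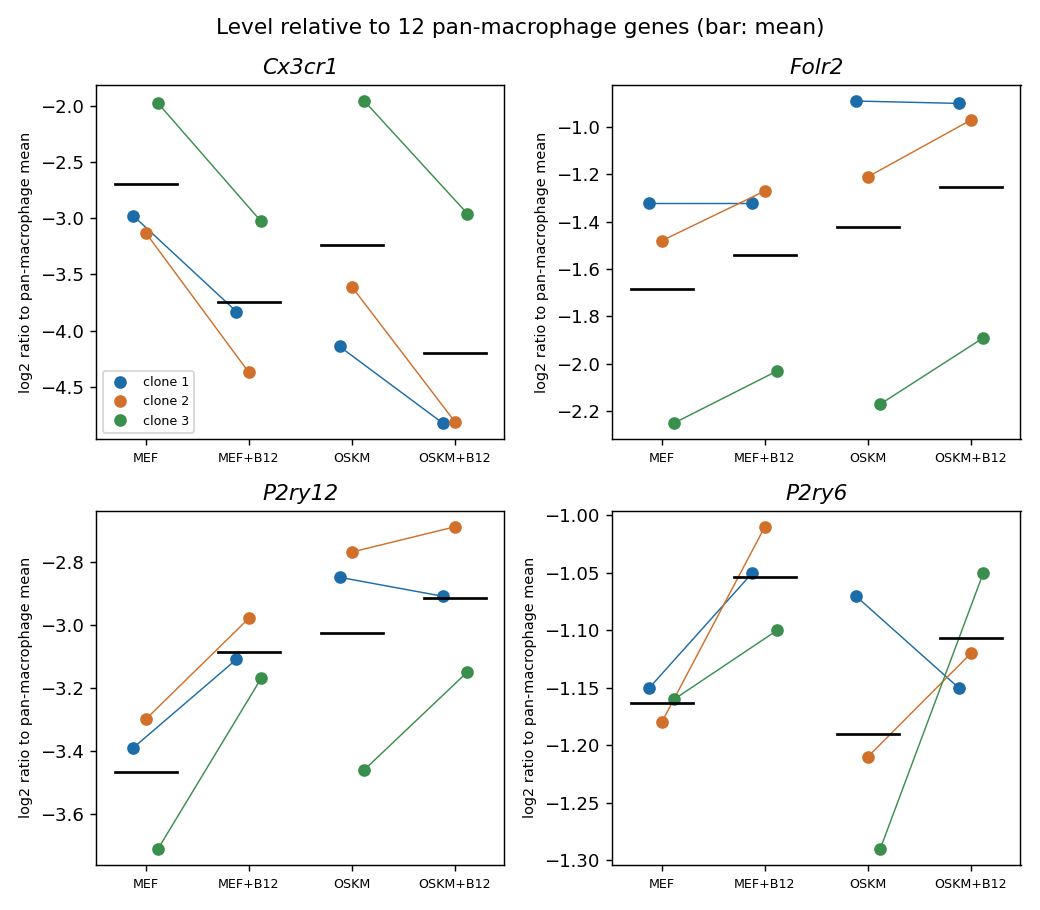
Log2 ratio of Cx3cr1, Folr2, P2ry12 and P2ry6 to the mean of 12 pan-macrophage genes in the same library, by group, on vertical axes scaled per gene. Points are libraries coloured by clone, thin lines join a clone without and with B12, and black bars are means; the Cx3cr1 ratio differs with B12 by -1.24 to -0.68 in the 6 pairs, whereas the P2ry6 ratio stays between -1.29 and -1.01.

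Of the 12 pan-macrophage genes, 5 were called with induction, where 9.73% of all genes were called. Aif1 fell by 0.51, Csf1r fell by 0.31, Adgre1 fell by 0.27 and Mertk fell by 0.17, while the integrin Itgam rose by 0.37. The median over the list was -0.24. Its most abundant members per length, Cd68 and Tyrobp, gave -0.26 and -0.21 with adjusted p of 0.136 and 0.128. Of 13 tested resident-macrophage genes, 4 were called: F13a1 rose by 1.5 and Cbr2 by 0.61, while Gas6 fell by 0.41 and Stab1 fell by 0.28, and the median was -0.05. Cd209f had at most 1 count. Of 11 tested microglia-enriched genes only Fcrls was called, which fell by 0.38 (adjusted p = 0.02), and the abundant Cst3 gave -0.14 without passing. With B12, 10 of 12 pan-macrophage, 7 of 13 resident-macrophage, 1 of 11 microglia-enriched and 0 of 8 monocyte genes were called, all higher. Over all genes 3.84% were called with B12, 663 of these 736 higher. The choice of members used this contrast and the rise of other macrophage genes, so nothing is read from these counts.

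The ligands of these receptors were expressed in the same cultures. Cx3cl1, the ligand of Cx3cr1, lay between 6.08 and 10.1 CPM, with -0.17 ± 0.07 (SE) on induction (adjusted p = 0.136) and -0.14 with B12. Adam10 and Adam17, the proteases that release it, lay between 187 and 210 CPM and between 94.8 and 112 CPM, and did not pass either. Ccr2 itself was at the limit of detection while its ligands Ccl2 and Ccl7 reached 152 and 141 CPM. With induction, 5 of 18 genes of this list were called, where 9.73% of all genes were called. Ccl6, which like Ccl9 binds Ccr1, rose by 1.33 ± 0.17 (SE, edgeR adjusted p = 0.00559). Has1, a hyaluronan synthase, rose by 1.04 and Ccl8 rose by 0.73, while Mfge8 fell by 0.32 and Ccl2 fell by 0.25. With B12, 7 of 18 were called, where 3.84% of all genes were called, 663 of these 736 higher. The 7 were all higher, with Ccl12 at 1.43.

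Of 27 close relatives of the members, 17 passed the filter on low counts. Ccr6, P2ry4, and the Timd4 relatives Havcr1 and Timd2 were at 0 counts in every library, and Ccr10, Cxcr2, Xcr1 and Ackr2 stayed below 10. Havcr2, which encodes Tim-3, was the only relative called with induction, 1 of 17, where 9.73% of all genes were called. It fell by 0.53 ± 0.10 (SE, edgeR adjusted p = 0.0213), opposite in sign to Timd4. With B12, Ccr3 (1.61) and Havcr2 (0.73) were among those called as higher and Cxcr4 (-0.82) was called as lower. The most abundant relatives per length, Cd44 and Ackr3, varied by -0.07 and -0.04 with induction.

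Of 5 endothelial genes tested with induction, Esam rose by 1.39, Tek by 1.26 and Cdh5 by 1.22, whereas Kdr and Vwf gave 0.01 and -0.11 (adjusted p = 0.965 and 0.649), and the summed level of the 10 genes was 43.2 to 48.7 CPM without and 49.8 to 146 CPM with doxycycline, mostly from Tek. Cldn5, Emcn and Robo4 were below 10 counts throughout, with Robo4 at 0. In the lymphatic list Flt4 fell by 0.80 and Nrp2 fell by 0.21, 2 of 4 tested. In the osteoblast list Bglap rose by 2.30 from few counts and Spp1 fell by 0.52, 2 of 8 tested. Of 10 fibroblast genes 4 were called, all lower, among them Col1a1, which fell by 0.35, and Col1a2, which fell by 0.28. Over all genes, 9.73% were called with induction. The part of endothelial, osteoblast and fibroblast cells in the members' differences was not tested.

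The genes whose pattern was most like that of Cx3cr1, among 12659 named genes with a mean log2 CPM of at least 0, were Ism1, Ltbp3, Mpzl1, Pdp1 and Gpm6b, with Pearson r of 0.989, 0.987, 0.983, 0.968 and 0.968 over the 12 libraries. After each clone's mean was subtracted Ism1, Mboat7, Ror2 and Fgfr2 were among the first 5, with r from 0.979 to 0.986. The libraries share clone, depth and treatment, so these r values describe likeness only. Ism1 shared the order of the clones, with induction differences of -0.43, -0.26 and -0.01, and its B12 difference averaged -0.15, smaller than that of Cx3cr1. Among the members, Timd4 was the most unlike Cx3cr1, with r of -0.924 over the 12 libraries and -0.854 within clones. Lyve1 was close to it, with -0.817 and -0.832, and both rest on few counts. Tmem119 was the most like Cx3cr1 within clones (0.753) but had -0.0568 over the 12 libraries. The pan-macrophage mean had -0.213 over the 12 libraries and -0.0447 within clones. Opposite B12 directions had a part in choosing the members, so a negative r is partly built in.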

How the data were processed

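Poly(A) RNA of 12 MEF cultures was sequenced with strand-specific libraries. Per the labels and the study's methods, the authors aligned read pairs with STAR (version 2.5.2 in the submitters' processing notes) to mm10 (GRCm38) and counted them per gene by strand. The deposited table holds whole-number read counts, not normalised. The handling of reads that match several genes is not given in the sources used here.

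Identifiers were matched to GENCODE M21 (GRCm38; 55480 of 55573 matched, 0 rows lacked a gene). Counts were fitted with edgeR 4.0.16 (R 4.3.3) by quasi-likelihood after TMM scaling (factors 0.934 to 1.06) and filterByExpr, leaving 19174 genes, with clone as a block and a threshold of 0.05 on adjusted p. The biological coefficient of variation was 8.04%. Log2 CPM had 2 as its prior count. The fits were tested on simulated data. There, the induction response varied between clones only in genes set to do so. The simulation therefore does not test the induction error where embryos vary more widely. Same-numbered libraries come from the same embryo per the labels, and their deviations from group means correlated in all 18 pairs (r from 0.27 to 0.687). DESeq2 1.42.0, other scalings and filters, no block, and left-out clones were alternatives. Embryos are the replicates.

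Members and gene lists were chosen with earlier results of these data known. Named genes were all members and, per list, the 2 most abundant per length, those called (up to 3 per test by size, with others named where a count was listed in full) and those below 10 counts in every library. Stab1, Mertk, Prox1, Sall1, Runx2, Sp7 and the genes called with B12 were added after their values were seen. Some genes that this rule would name are not reported here.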

Additional observations from a re-analysis of the deposited data

Results flagged for a closer look

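For Cx3cr1 the induction difference varied between the 3 clones (edgeR adjusted p = 0.00504 for the clone-by-induction term), where the mean log2 difference was -1.44 in clone 1, -0.67 in clone 2 and 0.01 in clone 3. For Tmem119 the same term had an adjusted p of 0.029, with clone means of -0.28, 0.10 and 0.05. Both were singled out because the response to induction differed between clones by a test of the difference itself. With 1 library per embryo and group, that test cannot tell embryos from single cultures.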

How the results depend on the processing

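With no replicate block for clone, the induction fit called 0 genes and 0 members (1865 and 1 with it), the B12 average 90 genes and 0 members (736 and 4 with it), and the interaction stayed at 0. Leaving out a clone or the OSKM library of clone 1 gave 3 to 3056 genes and 0 to 2 members for induction, 1315 to 6994 genes and 3 to 7 members for clones (7239 and 7 with all), 0 to 838 genes and 0 to 3 members for the induction response between clones (413 and 2 with all), and 34 to 785 genes and 0 to 4 members for the B12 average. Induction calls were lost with clone 1 or 2 left out (10 and 3 genes) and grew with clone 3 left out. With no clone 3, the induction response between clones called 0 genes, and only 2 clones, with fewer samples, remained in that fit. With no OSKM library of clone 1, P2ry6 was added to the calls of that test (edgeR adjusted p = 0.0319). For members called with induction, DESeq2 gave 2, no filter 3 and 10 counts in every library 0, the last because Timd4 was not tested. No filter gave 1257 genes for the induction response between clones. Signs of differences near 0 reversed with the OSKM library of clone 1 left out (Folr2 -0.01, Ccr1 -0.26, Tmem119 0.00), with clone 1 left out (Ccr1 -0.28, Tmem119 0.07; over all left-out clones or libraries Folr2 ran from -0.01 to 0.08, Ccr1 from -0.28 to 0.22 and Tmem119 from -0.11 to 0.07) and with DESeq2 (Ccr1 -0.01). Relative to the pan-macrophage genes, the B12 difference of Timd4 was 1.00 with a prior count of 0.5 (0.57 in the report's setting), and with Csf1r, Adgre1 and Cd68 alone P2ry6 gave -0.02 with B12 and 0.04 with induction. By Spearman rho, 2 of the 5 genes most like Cx3cr1 after subtracting clone means were again among the first 5. Beyond the samples or genes removed, the cause was not tested. Counts of 1 to 11 limit Ccr2, and counts of 0 to 80 limit Timd4.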
